A study of Mus musculus with 24 samples.

Results

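Cxcr3 is the chemokine receptor of activated T cells and NK cells, and Cxcl9, Cxcl10 and Cxcl11 are its ligands. These 4 genes were taken by name from the 770 genes of an nCounter immune panel. All 4 passed the filter on low values, which kept 621 genes. Cxcl9, Cxcl10 and Cxcl11 are small chemokines that myeloid, endothelial and tumour cells secrete under interferon. Interferon gamma induces all of them. Cxcl9 depends most closely on interferon gamma, whereas Cxcl10 and Cxcl11 also respond to type I interferon. In tumours, the ligands draw Cxcr3-positive effector lymphocytes in from the blood, and Cxcr3 itself is switched on by the type 1 lymphocyte factor T-bet (Tbx21).

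The samples were mammary tumours of female neu-N mice on the FVB background, which tolerate the rat neu antigen. Mice aged 7 to 8 weeks received NT2.5 cells, a neu-driven mammary tumour line, in the mammary fat pad and were treated for 3 weeks, beginning 3 days later. The 24 samples were ENT+CTLA4+HER2 (2 samples), ENT+PD1+CTLA4 (4), ENT+CTLA4 (4), ENT+PD1 (4), 2 samples with the same titles as ENT+PD1 replicates 1 and 2 (called the repeat-titled pair), ENT (4) and vehicle (4). ENT stands for entinostat, a drug that blocks class I histone deacetylases, given orally every day at 5 mg/kg. PD1, CTLA4 and HER2 stand for antibodies to these proteins at 100 µg per mouse. Vehicle mice received methylcellulose and isotype antibodies. The protocol says that anti-HER2 was used in part of the studies, and only samples with it in their title were counted as having received it. All tumours descend from a single implanted line, and the labels do not tie samples to separate animals beyond naming separate tumours, so p-values measure the spread between these samples. The labels do not say whether the repeat-titled pair is a second count of the ENT+PD1 tumours with the same titles. The labels give whole tumour as the source, although the extraction protocol ends with isolated immune cells. Epithelial transcripts were abundant in all arms, Epcam averaging between 4904 and 6709 normalized counts, so epithelial RNA was present. In such bulk RNA, fewer cells of a type and less RNA per cell cannot be told apart.

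The values are normalized counts, the molecules counted per gene times a single factor per sample. Recovered totals ran from 226863 to 483412 counts per sample, and the 4 genes were weakly counted. The lowest Cxcl9 value stood at the floor of 1, its count not recovered, and the highest held 90 counts. Counts in a sample ran from 14 to 71 for Cxcl10, 8 to 42 for Cxcl11 and 6 to 53 for Cxcr3. Counting error alone is therefore wide. The mean plus 2 SD of the 8 negative control probes of a sample, scaled like its genes, was taken as its limit. Cxcl9 exceeded that limit in 11 of 24 samples, Cxcl10 in 22, Cxcl11 in 18 and Cxcr3 in 23. The samples ran on 2 cartridges of 12, one holding ENT+PD1, ENT and vehicle and the other holding the anti-CTLA-4 arms and the repeat-titled pair. The scaled negative controls averaged 5.32 ± 1.11 on the cartridge of the anti-CTLA-4 arms and 9.02 ± 1.99 on the cartridge of the vehicle arm (SD, n = 12 each). An arm with anti-CTLA-4 and one without cannot be told apart from their cartridges, so the comparisons below are those within a cartridge unless stated.

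The stretches of 250 bases before the transcription start of Cxcl9, Cxcl10 and Cxcr3 are shown because these are the windows in which interferon and NF-kappa B elements of the ligand genes are known to lie. They come from RefSeq on GRCm38.p6, and all run on the minus strand, at chr5:92328080-92328329 for Cxcl9, chr5:92348890-92349139 for Cxcl10 and chrX:101734148-101734397 for Cxcr3. Capitals mark matches to a searched motif.
Cxcl9: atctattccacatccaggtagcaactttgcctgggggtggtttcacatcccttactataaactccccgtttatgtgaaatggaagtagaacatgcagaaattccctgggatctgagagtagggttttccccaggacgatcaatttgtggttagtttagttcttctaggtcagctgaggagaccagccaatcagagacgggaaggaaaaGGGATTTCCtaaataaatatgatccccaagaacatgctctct
Cxcl10: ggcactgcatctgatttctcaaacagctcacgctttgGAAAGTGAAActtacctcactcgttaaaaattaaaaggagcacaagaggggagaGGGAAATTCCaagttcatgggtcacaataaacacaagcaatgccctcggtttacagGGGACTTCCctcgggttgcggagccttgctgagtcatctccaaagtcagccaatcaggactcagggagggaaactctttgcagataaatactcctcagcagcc
Cxcr3: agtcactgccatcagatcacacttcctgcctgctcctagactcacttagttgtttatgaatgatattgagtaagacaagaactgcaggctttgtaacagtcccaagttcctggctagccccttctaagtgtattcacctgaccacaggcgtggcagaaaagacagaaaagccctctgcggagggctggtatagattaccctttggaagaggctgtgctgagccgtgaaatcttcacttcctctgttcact

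Searched on both strands were the core of the interferon-stimulated response element, the core of the gamma-activated site (TTCNNNGAA), and kappa B forms of 10 and 9 bases, the 9-base form (GGGANTTCC) chosen after the sequences were read. Cxcl10 held the response element core as GAAAGTGAAA at 213 to 204 bases before the start, the 10-base kappa B form as GGGAAATTCC at 159 to 150 and the 9-base form as GGGACTTCC at 103 to 95. Cxcl9 held the 9-base form as GGGATTTCC at 42 to 34 bases before the start. None of these matches overlap, and Cxcr3 held none in this window. Of 32851 RefSeq promoter windows of the same length, 2.98% held the response element core, 7.02% the gamma-activated core, 1.21% the 10-base kappa B form and 1.43% the 9-base form. The matches describe letters, not bound sites. For Cxcl11, RefSeq annotates a transcribed pseudogene in the C57BL/6J assembly, and the neu-N mice are FVB. Its allele in these mice was not analysed here.

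Cxcl9 was highest in the tumours whose treatment joined anti-HER2 with entinostat and anti-CTLA-4. It had 61.2 and 116 normalized counts in the ENT+CTLA4+HER2 tumours, against 32.8, 6.25, 1 and 13.2 in the ENT+CTLA4 tumours. Both anti-HER2 tumours lay above all the other 22 samples, whose highest was an ENT+PD1 tumour at 36.3. Of the 621 genes kept, 11 (1.77%) placed these 2 tumours above all others. The values rest on 36 and 90 counted molecules in the ENT+CTLA4+HER2 tumours, with exact 95% Poisson intervals of 42.8 to 84.7 and 93.4 to 143 normalized counts, against 32 molecules (22.5 to 46.4) in the highest ENT+CTLA4 tumour. These intervals cover counting error only.

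**Figure D1:**
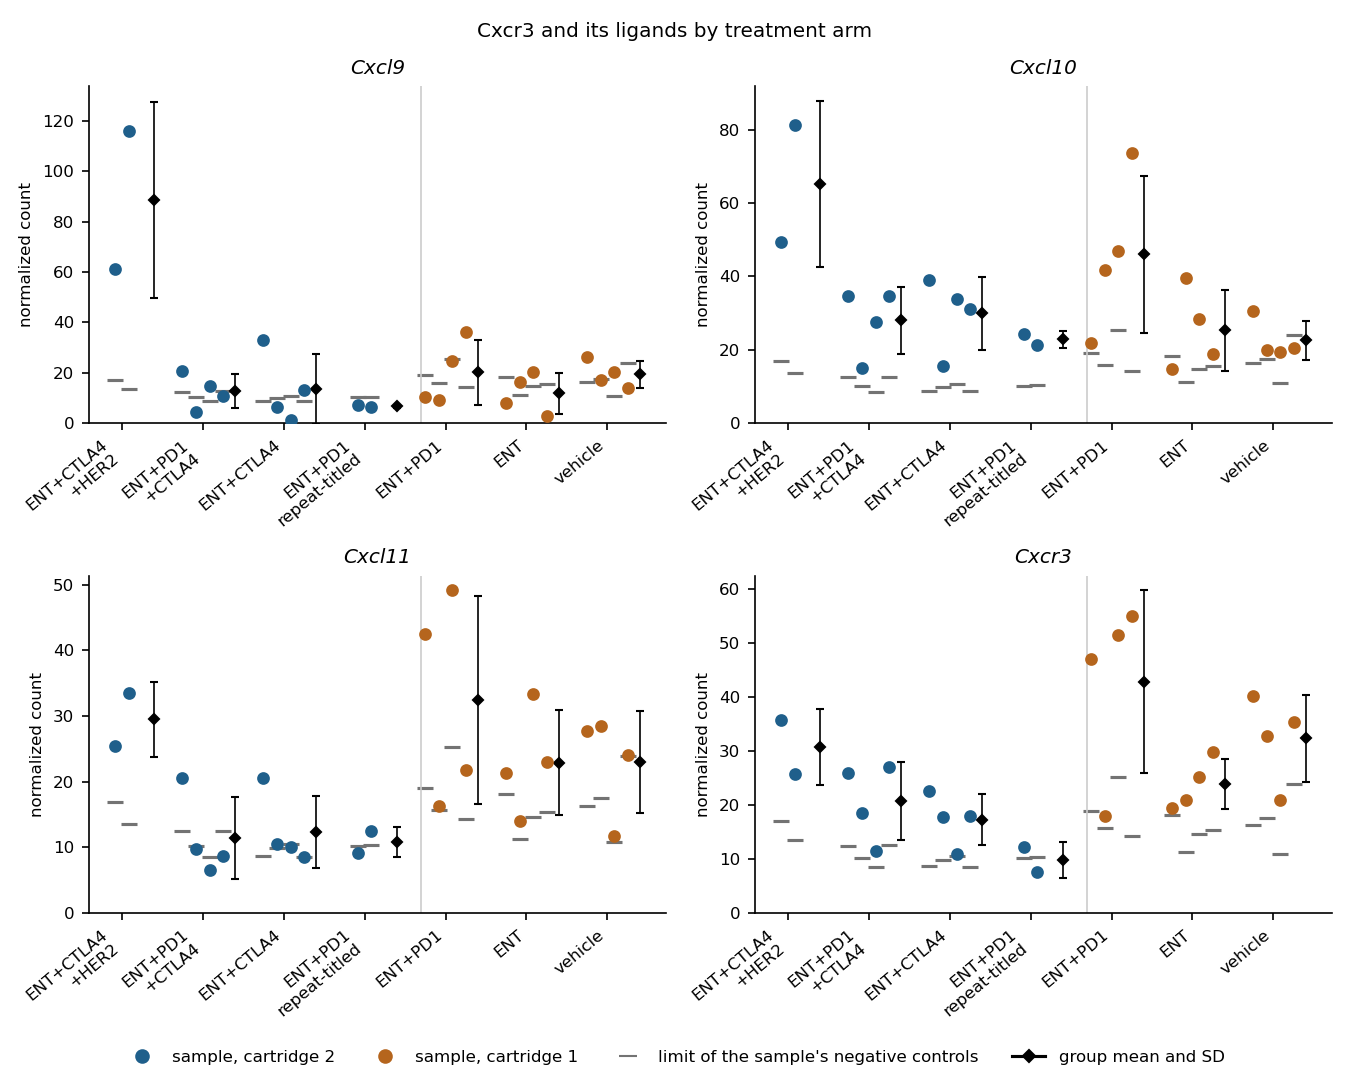
Normalized counts of Cxcl9, Cxcl10, Cxcl11 and Cxcr3 in all 24 samples by treatment arm, with each sample's limit of its negative controls (grey dash) and the mean and SD of each arm (black diamond, bars drawn down to 0 at most). The 2 ENT+CTLA4+HER2 tumours stand at 61.2 and 116 for Cxcl9, above every other sample, while the other arm means of Cxcl11 and Cxcr3 on cartridge 2 (left) lie below those of cartridge 1 (right).

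The log2 change of Cxcl9, ENT+CTLA4+HER2 over ENT+CTLA4, was 3.22 ± 0.88 (SE; 95% interval 1.38 to 5.07; n = 2 and 4), with a limma adjusted p = 0.0583. It did not pass the threshold of 0.05, which 14 of 621 genes did (2.25%). By unadjusted p it ranked 17th and by size 2nd among the genes kept. Because only 2 of 4 ENT+CTLA4 samples exceeded their limit, and 1 of the 4 was recorded at the floor of 1, the size depends on how weak values are treated. With each value raised to its sample's limit, the change was 2.45 (adjusted p = 0.0056), and with a pseudocount of 20 it was 1.75 (adjusted p = 0.0196). Without ENT+CTLA4 replicate 1 it was 3.85 (adjusted p = 0.0161), and without ENT+CTLA4+HER2 replicate 2 it was 2.77. This last fit leaves 1 sample in that arm, which is assumed to vary like the samples of the other groups. The change also passed, at 3.22, with the repeat-titled pair as ENT+PD1 and a term for the cartridge. It passed under no other alternative, among them median rescaling, quantile normalization and subtraction of the negative controls.

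The other 3 genes were also higher in both anti-HER2 tumours than in every ENT+CTLA4 tumour, and none passed the test. Cxcl10 had 49.3 and 81.3 normalized counts in the ENT+CTLA4+HER2 tumours, against 39.0, 15.6, 33.8 and 31.1 in the ENT+CTLA4 tumours, a log2 change of 1.13 ± 0.47 (SE, adjusted p = 0.181). Cxcl11 had 25.5 and 33.6, against 20.5, 10.4, 10.0 and 8.54, a log2 change of 1.25 ± 0.50 (adjusted p = 0.174). Cxcr3 had 35.7 and 25.8 in ENT+CTLA4+HER2, against 22.6, 17.7, 10.95 and 17.9 in ENT+CTLA4, a log2 change of 0.82 ± 0.42 (adjusted p = 0.301). With groups of 2 and 4, such separation was common: 28.8% of the 621 genes had groups that did not overlap, 22.5% with ENT+CTLA4+HER2 on top. The median change over all genes kept was 0.17.

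Other measures moved in the same tumours. The scaling factor was 1.70 and 1.29 in the ENT+CTLA4+HER2 samples, and their negative controls averaged 7.86 and 6.62, against 3.59 to 5.47 in ENT+CTLA4. Neutrophil markers summed to 13255 and 2121 normalized counts over 8 genes in ENT+CTLA4+HER2, against 938 to 1833 in ENT+CTLA4, with 1 and 2 of the 8 at or under the limit in every sample of those arms. Most of each sum was a single gene, S100a8, at 11838 and 1607 in ENT+CTLA4+HER2, against 669 to 1555 in ENT+CTLA4. All 6 neutrophil markers kept were higher, with a median log2 change of 1.06, and 0 of them passed. The 11 T-cell markers summed to 204 and 409, against 154, 86.45, 81.3 and 725, so that 3 of 4 ENT+CTLA4 tumours lay below both, with 4 and 0 markers at or under the limit throughout. All 8 T-cell markers kept were higher in ENT+CTLA4+HER2 and 0 of them passed, where 67.6% of all genes were higher. Their median log2 change was 0.80, beside 0.17 for all genes. It was 0.69 after median rescaling, and 0.30 with 6 of 8 higher after quantile normalization. Cd8a and Cd8b1, the chains of CD8, exceeded the limit in 0 of 2 ENT+CTLA4+HER2 samples and in 1 of 4 ENT+CTLA4 samples each. Macrophage and monocyte markers summed to 4481 and 3924 over 10 genes, against 3210 to 4580, with 0 under the limit throughout in either arm. Of 6 epithelial genes kept, 2 were higher and 4 lower, with a median log2 change of -0.02. Among these the adhesion gene Itgb4 passed, at 771 ± 411 and 1436 ± 191 (-0.996 ± 0.26, adjusted p = 0.0472), where 0.966% of all genes passed as lower, while Epcam averaged 5814 ± 1145 and 5848 ± 782. Their part in the Cxcl9 result was not tested.

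**Figure D2:**
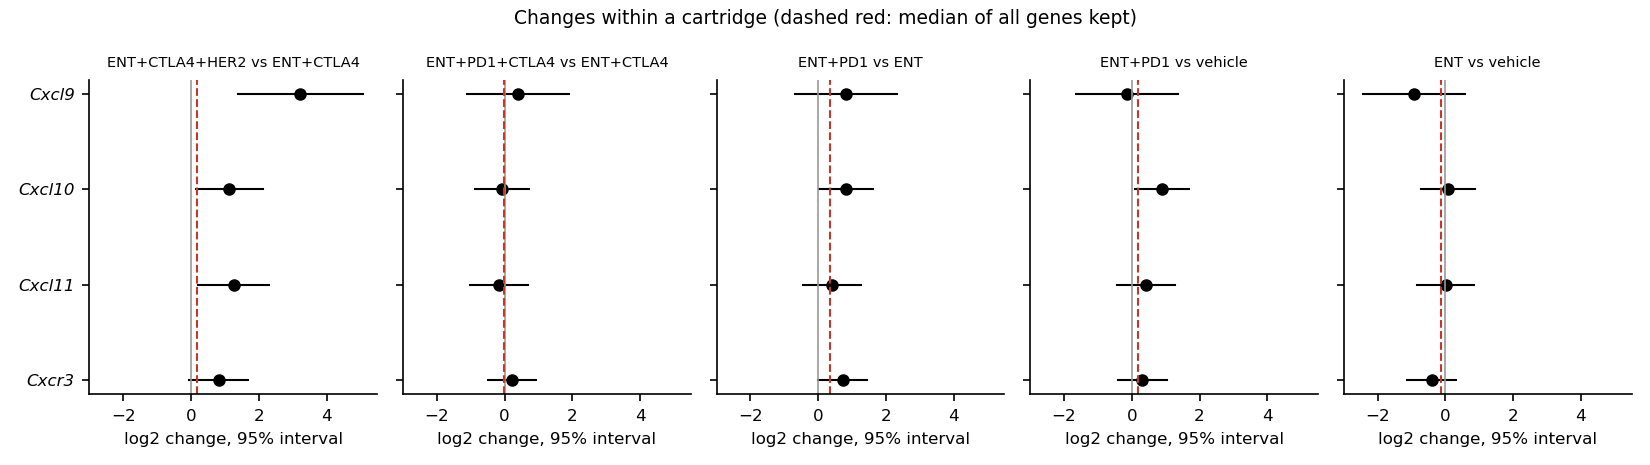
Log2 change (x axis) with its 95% interval for each of the 4 genes (y axis) in the 5 comparisons within a cartridge, from the limma fit; the dashed red line is the median change of the 621 genes kept. Cxcl9 in ENT+CTLA4+HER2 over ENT+CTLA4, at 3.22, lies farthest from 0, and none of the 20 changes passed an adjusted p of 0.05.

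Adding anti-PD-1 to entinostat went with more Cxcl10 and Cxcr3 in some tumours, and neither gene passed the test. Cxcl10, which attracts activated T cells and NK cells, had 21.8, 41.6, 46.8 and 73.7 normalized counts in ENT+PD1 tumours, against 14.6, 39.5, 28.2 and 18.7 in ENT tumours. The arms overlapped, with 3 ENT+PD1 tumours above all ENT tumours. The log2 change was 0.81 ± 0.38 (SE, n = 4 each). In limma its p was 0.0466 unadjusted and 0.250 adjusted. Cxcr3 had 47.1, 17.96, 51.5 and 55.0 in ENT+PD1 tumours, against 19.4, 20.9, 25.2 and 29.8 in ENT tumours. Here 3 ENT+PD1 tumours lay above all ENT tumours and the remaining one below them all. Its log2 change was 0.72 ± 0.34 (adjusted p = 0.251).

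Cxcl9 in the same comparison was 10.3, 8.98, 24.6 and 36.3 in ENT+PD1 and 7.77, 16.3, 20.2 and 2.56 in ENT (log2 change 0.81 ± 0.72, adjusted p = 0.458), and the limit was exceeded in 1 of 4 and 2 of 4 samples. Cxcl11 was 42.5, 16.3, 49.2 and 21.8 in ENT+PD1 and 21.4, 13.9, 33.3 and 23.0 in ENT (0.41 ± 0.41, adjusted p = 0.501). None of the 4 genes passed, as against 0.322% of genes in all, none had arms that did not overlap, as against 7.09%, and 19.3% had an unadjusted p under 0.05. The median of all genes kept was itself 0.34 higher in ENT+PD1. After rescaling to the sample median, Cxcl10 stood at 0.46 and Cxcr3 at 0.37, and under quantile normalization at 0.31 and 0.28.

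ENT+PD1 replicates 5 and 6 carried the highest values of that arm for Cxcl9, Cxcl10 and Cxcr3. Their T-cell markers summed to 559 and 680 normalized counts over 11 genes, against 232 and 113 in replicates 1 and 2 and 128 to 221 in ENT, and their macrophage and monocyte markers to 5552 and 7492, against 2498 and 2760 in those replicates and 2729 to 3000 in ENT. At or under the limit throughout were 3 T-cell markers in ENT+PD1 and 5 in ENT, and 1 macrophage marker in each arm. Cd8a was not above the limit in any ENT+PD1 or ENT sample. Without both of these tumours the change was 0.35 for Cxcl10 and 0.30 for Cxcr3, relative to ENT. They were picked after the data were seen, as the highest of the arm. Leaving them out therefore had to lower the change, whatever their cell content. The part of these cell types in the result was not tested.

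Against vehicle, Cxcl10 in ENT+PD1 stood 0.90 ± 0.38 log2 units higher (unadjusted p = 0.0299, limma adjusted p = 0.470), with vehicle tumours at 30.45, 19.97, 19.3 and 20.55 normalized counts. All 3 ENT+PD1 tumours above 40 exceeded every vehicle tumour. Cxcl9, Cxcl11 and Cxcr3 changed by -0.13 ± 0.72, 0.42 ± 0.41 and 0.32 ± 0.34, with adjusted p of 0.637 to 0.941. None of the 4 genes had arms that did not overlap, as 2.58% of genes did. None of the 621 genes passed in this comparison (0% called) and 60 (9.66%) had an unadjusted p under 0.05.

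Entinostat alone left no member with a change that passed. Cxcl9 had 7.77, 16.3, 20.2 and 2.56 normalized counts in ENT tumours, against 26.3, 17.1, 20.15 and 13.7 in vehicle tumours, a log2 change of -0.94 ± 0.72 (adjusted p = 0.999). Cxcr3 had a change of -0.41 ± 0.34, with vehicle tumours at 40.1, 32.8, 21.0 and 35.4. None of the 4 genes had arms that did not overlap, as 6.44% of genes did. Cxcl10 and Cxcl11 changed by 0.08 ± 0.38 and 0.0064 ± 0.41, vehicle values of Cxcl11 being 27.7, 28.5, 11.8 and 23.98. Their intervals, -0.72 to 0.88 and -0.84 to 0.86, still allow changes in either direction. No gene of the 621 passed in limma (0% called), and 29 (4.67%) had an unadjusted p under 0.05.

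No member passed the test when anti-PD-1 was added to entinostat and anti-CTLA-4. In ENT+PD1+CTLA4 tumours Cxcl9 had 20.55, 4.41, 14.6 and 10.8 normalized counts, Cxcl10 had 34.6, 14.99, 27.6 and 34.6, Cxcl11 had 20.55, 9.70, 6.50 and 8.65, and Cxcr3 had 25.96, 18.5, 11.4 and 27.0. Each range overlapped that of ENT+CTLA4. The log2 changes over ENT+CTLA4 were 0.41 ± 0.72 for Cxcl9, -0.09 ± 0.38 for Cxcl10, -0.16 ± 0.41 for Cxcl11 and 0.22 ± 0.34 for Cxcr3, each with a limma adjusted p of 0.9998. The interval for Cxcl9 ran from -1.10 to 1.91 and that for Cxcl10 from -0.89 to 0.71. No gene passed (0% called), and 10 (1.61%) had an unadjusted p under 0.05. The anti-PD-1 effect in the presence of anti-CTLA-4, minus that in its absence, was -0.90 ± 0.54 for Cxcl10 (adjusted p = 0.603) and between -0.57 and -0.40 for the other 3 genes, beside a median of -0.33 over all genes kept. No gene passed this test of the difference (0% called), with 42 (6.76%) at an unadjusted p under 0.05.

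Across the cartridges, Cxcl11 and Cxcr3 were lower in the anti-CTLA-4 arms than in vehicle, again without passing. Cxcl11 averaged 12.4 ± 5.49 normalized counts with ENT+CTLA4 and 11.4 ± 6.28 with ENT+PD1+CTLA4, against 23.0 ± 7.74 in vehicle (SD, n = 4 each). Its log2 changes were -0.85 ± 0.41 (adjusted p = 0.299) and -1.004 ± 0.41 (adjusted p = 0.256), and the limit was exceeded in 2 and 1 of 4 samples. Cxcr3 averaged 17.3 ± 4.78 with ENT+CTLA4 and 20.7 ± 7.30 with ENT+PD1+CTLA4, against 32.3 ± 8.15 in vehicle, with log2 changes of -0.87 ± 0.34 (adjusted p = 0.202) and -0.65 ± 0.34 (adjusted p = 0.425). In these comparisons 1.45% and 2.09% of genes passed. Cxcl9 and Cxcl10 changed by -1.12 ± 0.72 and 0.34 ± 0.38 in ENT+CTLA4, and for ENT+PD1+CTLA4 by -0.71 ± 0.72 and 0.25 ± 0.38.

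The repeat-titled pair carried the ENT+PD1 name on the cartridge of the anti-CTLA-4 arms. Its Cxcr3 values were 12.2 and 7.47 normalized counts, against 17.96 to 55.0 in the ENT+PD1 tumours of the other cartridge. Cxcl11 was 9.14 and 12.45 in the pair, against 16.3 to 49.2, and Cxcl9 was 7.11 and 6.22, against 8.98 to 36.3. Only Cxcl10, at 24.4 and 21.2 against 21.8 to 73.7, overlapped. ENT+PD1 replicates 1 and 2, which bear the same titles, had 47.1 and 17.96 for Cxcr3 and 42.5 and 16.3 for Cxcl11. They had 10.3 and 8.98 for Cxcl9 and 21.8 and 41.6 for Cxcl10. With the pair entered as ENT+PD1 and the cartridge as a block, the Cxcr3 changes of ENT+CTLA4 and ENT+PD1+CTLA4 over vehicle turned to 1.07 and 1.28 and those of Cxcl11 to 0.54 and 0.38. ENT+PD1 is then the only arm on both cartridges, so the cartridge term rests on the 2 samples of the pair against the other 4. These values do not separate treatment from cartridge. An F test over the 5 arms of 4 samples, which includes the cartridge, gave a limma adjusted p of 0.112 for Cxcl11, 0.144 for Cxcr3, 0.455 for Cxcl10 and 0.677 for Cxcl9, while 3.22% of genes passed. It passed for Cxcl11 without ENT+PD1+CTLA4 replicate 1 (adjusted p = 0.0421) or ENT+PD1 replicate 2 (0.0434), and for Cxcr3 without ENT+PD1 replicate 2 (0.0159). These p-values ran up to 0.216 and 0.321 when other samples were left out.

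By arm means, Cxcl9 ran in the order ENT+CTLA4+HER2 (88.7 ± 38.9), ENT+PD1 (20.1 ± 12.9), vehicle (19.3 ± 5.35), ENT+CTLA4 (13.3 ± 13.9), ENT+PD1+CTLA4 (12.6 ± 6.77), ENT (11.7 ± 7.99) and the repeat-titled pair (6.67 ± 0.629). Apart from the first step, neighbouring arms overlapped. Cxcl10 also began with ENT+CTLA4+HER2 (65.3 ± 22.7), followed by ENT+PD1 (46.0 ± 21.4), and ended with vehicle (22.6 ± 5.28), each range overlapping the next. Cxcl11 and Cxcr3 had their highest means in ENT+PD1, at 32.4 ± 15.8 and 42.9 ± 16.9, and their lowest in the repeat-titled pair, at 10.8 ± 2.34 and 9.83 ± 3.33.

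Over the 24 samples the highest correlations among the 4 genes were those of Cxcl11 with Cxcr3 and of Cxcl9 with Cxcl10, an order that did not hold on the cartridge of the anti-CTLA-4 arms alone. Cxcl9 and Cxcl10 followed each other with Pearson r = 0.655 and Spearman rho = 0.645 (permutation p = 0.0004 and 0.0009, adjusted over 6 pairs 0.0012 and 0.0026). Cxcl11 and Cxcr3 had r = 0.752 and rho = 0.755 (permutation p = 0.0001 each, the smallest 100000 permutations were rounded to, adjusted 0.0003 and 0.0002). For Cxcl9 and Cxcl10, r was 0.580 on the vehicle cartridge and 0.752 on the other, 0.712 without the 2 samples farthest from the median of Cxcl9, and 0.490 without both ENT+CTLA4+HER2 tumours. For Cxcl11 and Cxcr3, r was 0.697 and 0.593 within the cartridges and 0.680 without the 2 farthest samples. The median r over all 192510 pairs of genes kept was 0.182, and 19.7% exceeded 0.5. All points share the scaling to housekeeping genes. The permutations treat all 24 samples as independent, the repeat-titled pair included.

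Of the other 4 pairs, Cxcl9 had r = 0.504 with Cxcr3 (rho = 0.594, adjusted p = 0.0233) and r = 0.475 with Cxcl11 (rho = 0.503, adjusted p = 0.0267), with 0.407 and 0.113 on the vehicle cartridge and 0.674 and 0.762 on the other. Without the 2 farthest samples these were 0.485 and 0.372, and without the repeat-titled pair neither correlation passed. Cxcl10 had r = 0.323 with Cxcr3 (rho = 0.300, adjusted p = 0.149) and r = 0.275 with Cxcl11 (rho = 0.216, adjusted p = 0.196). Without the 2 farthest samples they were 0.198 and 0.161. Within the cartridges they were 0.383 and 0.0482 on that of vehicle and 0.522 and 0.706 on the other. On the cartridge of the anti-CTLA-4 arms, Cxcl9 with Cxcl11 (0.762) was thus as high as Cxcl9 with Cxcl10 (0.752), and Cxcl11 with Cxcr3 (0.593) was lower than both.

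**Figure D3:**
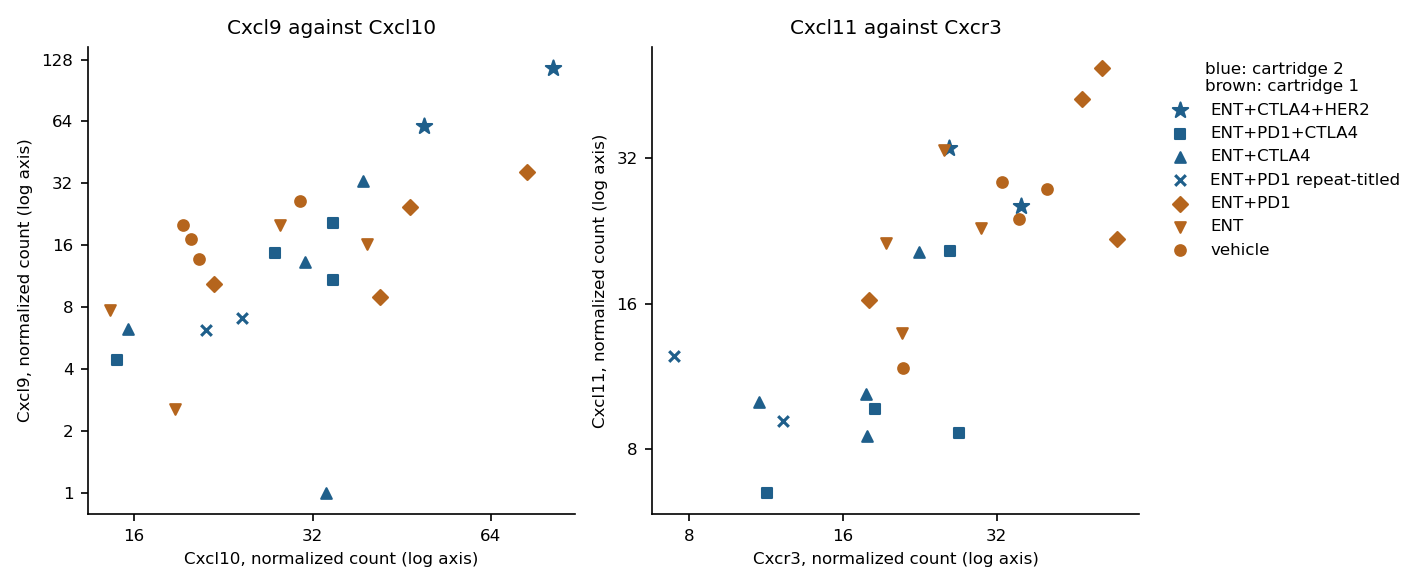
Cxcl9 against Cxcl10 (left) and Cxcl11 against Cxcr3 (right), in normalized counts on log axes, for 24 samples marked by arm and coloured by cartridge. Pearson r is 0.655 and 0.752, and the ENT+CTLA4+HER2 tumours (stars) form the upper end of the left panel but not of the right.

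The mean of the scaled negative controls rose with Cxcl11 (r = 0.822, rho = 0.820) and with Cxcr3 (r = 0.751, rho = 0.788) across the 24 samples, with a permutation p = 0.0001 for each, also after adjustment over the 4 genes. On the vehicle cartridge alone these were 0.850 and 0.712, on the other cartridge 0.644 and 0.516, and without the 2 samples farthest from the median 0.772 and 0.740. Cxcl9 had r = 0.220 (rho = 0.300, adjusted p = 0.401) and Cxcl10 had r = 0.0573 (rho = 0.0587, adjusted p = 0.789), with 0.201 and -0.0168 without the 2 farthest samples. On the vehicle cartridge these were 0.202 and 0.0138, and on the other 0.373 and 0.442, nearer to the 0.516 of Cxcr3 there. The differences between the genes in this correlation were not tested. Of the 621 genes kept, 14.7% had r above 0.5 with the negative controls. The genes and the scaled negative controls of a sample share its scaling factor. With the mean of the negative controls subtracted from each sample, r was 0.660 between Cxcl11 and Cxcr3 and 0.736 between Cxcl9 and Cxcl10 (adjusted p = 0.00111 and 0.00024).

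**Figure D4:**
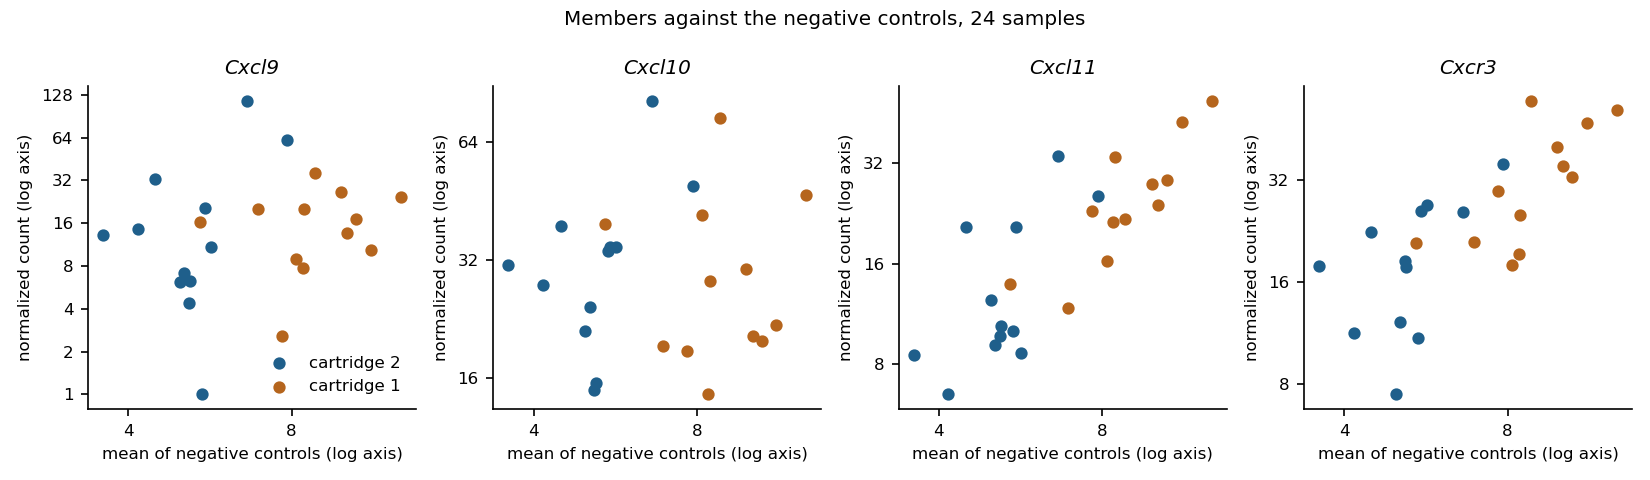
Normalized count of each gene (y axis) against the mean of the scaled negative controls of the same sample (x axis), both on log axes, for 24 samples coloured by cartridge. Cxcl11 and Cxcr3 rise with the negative controls (r = 0.822 and 0.751), while Cxcl9 and Cxcl10 do not follow them closely (r = 0.220 and 0.0573).

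The genes most like each member, by Pearson r over the 24 samples, were read as a description. For Cxcl9 they were Gbp5 (r = 0.774) and Irf1 (0.753), an interferon-inducible GTPase and the interferon gamma-induced transcription factor, then Psmb8 (0.722), an immunoproteasome subunit, the endotoxin receptor Tlr4 (0.721) and the Ly49 gene Klra2 (0.699). For Cxcl10 they were the lectin receptor Clec4a2 (0.835), the macrophage growth factor Csf1 (0.760), Gbp5 (0.758), Irf1 (0.755) and Cd1d1 (0.755), which presents lipids. These 2 lists share Gbp5 and Irf1. Cxcl10 itself ranked 16th among the genes most like Cxcl9, and Cxcl9 56th among those most like Cxcl10.

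For Cxcl11 the closest were the complement protease Cfd (r = 0.913), Oas3 (0.889), the co-stimulatory receptor Cd28 (0.882), Gzma (0.872) and Il5 (0.864). For Cxcr3 they were the peptidoglycan sensor Nod2 (0.852), the decoy receptor Il22ra2 (0.818), Cd28 (0.816), the Ly49 gene Klra4 (0.812) and Gzma (0.808). Apart from Cd28, with a median of 37.4 normalized counts, these had medians between 14.9 and 21.95. These genes were chosen for their correlation with Cxcl11 or Cxcr3, which themselves followed the negative controls, and with the controls they had r of 0.662 to 0.866.

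The balance of Cxcl9 and Cxcl10 was read as the log2 ratio of their values plus 1, between samples only, since the probes need not capture with equal efficiency. It averaged -1.25 ± 0.56 in ENT+PD1 and -1.25 ± 0.87 in ENT, against -0.23 ± 0.25 in vehicle (SD, n = 4 each). The ENT+PD1 and vehicle samples did not overlap, at -2.10 to -0.90 and -0.55 to 0.06. That difference had an exact permutation p = 0.0286, two-sided, the smallest that 4 against 4 allows, and 0.143 after adjustment over 5 comparisons. A lone comparison at this smallest p cannot go below 0.143 once adjusted. Cxcl9 exceeded the limit in 1 of 4 ENT+PD1 and 2 of 4 vehicle samples. How often ratios of other genes separate these arms was not counted. ENT against vehicle had an exact p = 0.0571 (adjusted 0.143). The ratio was 0.31 and 0.51 in ENT+CTLA4+HER2, against -4.12 to -0.24 in ENT+CTLA4, with an exact p = 0.2 (adjusted 0.333), where 2 against 4 cannot go below 0.0667. Of the 24 Cxcl9 values under these ratios, 13 lie at or under the limit.

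The genes around the axis were read from lists chosen with earlier results of these data known. Of 19 genes kept from an interferon gamma list, 15 were higher in ENT+CTLA4+HER2 than in ENT+CTLA4, with a median log2 change of 0.63 beside 0.17 for all genes, of which 67.6% were higher, and 0.51 and 0.46 under median rescaling and quantile normalization. Only Psmb9, an immunoproteasome subunit, passed: 122 ± 4.45 normalized counts in ENT+CTLA4+HER2 (n = 2) and 48.8 ± 8.29 in ENT+CTLA4 (n = 4), a log2 change of 1.32 ± 0.31 (adjusted p = 0.0344), while 1.29% of all genes passed as higher. Gbp5 averaged 54.5 ± 9.48 and 21.9 ± 12.5 in these arms, and Irf1 1000.2 ± 309 and 595.9 ± 107. Both were named as genes most like Cxcl9 over these same samples, so their values here are no separate result. Of 16 type I interferon-stimulated genes kept, 15 were higher, with a median of 0.44 and none passing. After median rescaling and quantile normalization, 13 of 16 were higher, with medians of 0.32 and 0.14. Ifng itself, the gene of interferon gamma, was chosen after its values were seen and exceeded the limit in 7 of 24 samples, in 0 of 2 ENT+CTLA4+HER2 samples and 1 of 4 ENT+CTLA4 samples.

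In ENT+PD1 over ENT, 19 of 19 interferon gamma genes were higher and none passed, where 81.3% of all genes were higher. Their median was 0.45 beside 0.34 for all genes. After median rescaling it was 0.09, with 13 of 19 higher. The 2 with the smallest unadjusted p were Cd274, which encodes PD-L1, at 106 ± 70.8 normalized counts in ENT+PD1 and 35.5 ± 12.8 in ENT (log2 change 1.34 ± 0.43, adjusted p = 0.205), and the transcription factor Irf8, at 85.9 ± 46.4 and 38.7 ± 6.97 (0.99 ± 0.34, adjusted p = 0.206). Type I genes had a median of 0.28, which turned to -0.08 and -0.14 under the 2 other scalings. Smallest in unadjusted p among them were Irf7, which amplifies type I interferon, and the RNA sensor Ifih1. They stood at 1.16 ± 0.31 (adjusted p = 0.143) and 0.54 ± 0.18 (adjusted p = 0.205). Irf7 exceeded the limit in 3 of 4 ENT+PD1 samples and 1 of 4 ENT samples, so its size is poorly measured.

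Chemokines and receptors outside the axis were also mostly higher in that comparison. There 81.3% of all genes were higher, with a median log2 change of 0.34. From each list, the genes with the smallest unadjusted p are named, whatever the size of their change. All 9 other CXC chemokines kept were higher (median 0.54). Cxcl16, the ligand of Cxcr6, stood at 0.47 ± 0.15 (adjusted p = 0.205), and the neutrophil attractant Cxcl2 at 0.81 ± 0.30 (adjusted p = 0.227). Of 16 CC, XC and CX3C chemokines kept, 13 were higher (median 0.80). Ccl3 stood at 0.72 ± 0.27 and Ccl20, the ligand of Ccr6, at 0.96 ± 0.40 (adjusted p = 0.227 and 0.242). Ccl20 exceeded the limit in 2 of 4 ENT samples. All 13 other chemokine receptors kept were higher (median 0.71). Xcr1, the receptor of cross-presenting dendritic cells, stood at 0.97 ± 0.37, and the monocyte receptor Ccr2 at 1.39 ± 0.54 (adjusted p = 0.227 each). None of these lists held a gene that passed. After median rescaling the medians were 0.18, 0.44 and 0.35, with 7 of 9, 11 of 16 and 12 of 13 genes higher.

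Genes that act on Cxcr3 or its ligands were mostly too weak to test. Of 14 such genes, which include Tbx21, the Cxcr3-inducing factor, and the ligand-trimming protease Dpp4, 5 were kept. In ENT+PD1 over ENT, 3 of these 5 were higher and none passed, the smallest p belonging to Il2rb, at 86.7 ± 71.3 and 28.3 ± 11.4 normalized counts (log2 change 1.21 ± 0.65, adjusted p = 0.278), and Dpp4, at 46.5 ± 36.2 and 20.1 ± 5.74 (0.94 ± 0.52, adjusted p = 0.286). In the same comparison, Klrk1, the NKG2D receptor of NK cells, was the only marker gene that passed (26.05 ± 10.7 and 7.83 ± 2.84, adjusted p = 0.03998), and in ENT it exceeded the limit in 0 of 4 samples, so its size is not measured. Across cartridges, the type I gene Ifit1 averaged 15.8 ± 2.19 normalized counts with ENT+CTLA4 and 18.4 ± 6.85 with ENT+PD1+CTLA4, below the 36.7 ± 8.28 of vehicle, with adjusted p of 0.0307 and 0.0357. Usp18, an interferon-induced protease, and Xcr1 also fell in ENT+CTLA4 (adjusted p = 0.0368 each) and Oas3 in ENT+PD1+CTLA4 (0.0357), with 2, 1 and 0 of 4 samples over the limit in those arms. As with Cxcl11 and Cxcr3, these calls cannot be told apart from the cartridge.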

How the data were processed

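RNA of 24 tumour samples was counted on an nCounter instrument with 750 endogenous genes, 20 housekeeping genes, 8 negative and 6 positive controls. The series title names the PanCancer Immune panel, and the label protocol a myeloid panel. The deposited values are normalized signal on a linear scale. The authors' normalization is not given in the sources used here, and the submitters' processing notes name limma without a role or version. From the values, every sample has a housekeeping geometric mean of 346.9, and dividing each sample by 1 factor returned 100% whole numbers (tolerance 0.05), apart from 82 values at exactly 1, read as a floor. No background was subtracted. Cartridges are those of the file headers.

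Values were taken as log2(value + 1). The added 1 shrinks changes of weak genes, while values under the limit can also enlarge them, so the size of such changes is uncertain in both directions. Genes at 20 or more in at least 4 samples were kept (621, with 149 left out). Limma 3.58.1 in R 4.3.3 (lmFit, eBayes with trend) was fitted to 22 samples in 6 groups, without the repeat-titled pair and without a cartridge term. P-values were adjusted by Benjamini-Hochberg over the 621 genes. The fit was tested on simulated data with these arms and independent normal noise, with changes in ENT+PD1 only, read against ENT. That simulation held no cartridge effect, floor or counting error and did not cover the anti-HER2 comparison. Correlations were tested with 100000 permutations and ratios with exact permutation tests. Alternatives covered the pseudocount, filter, scaling, background, samples in the fit, replicate and cartridge blocks and each sample left out.

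The 4 genes, the gene lists and the marker lists were chosen with earlier results of these data known. Beside the 4 genes, the text names the 5 genes most correlated with each, and of each list the genes that passed or, in ENT+PD1 against ENT, the 2 with the smallest p. Marker lists are named only where they accompany a result.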

Additional observations from a re-analysis of the deposited data

Results flagged for a closer look

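Among 20 groups of 4 samples of the 4 genes, 2 held a sample far from the other 3, where chance gives about 1 in 20 groups. Cxcl10 in vehicle replicate 1 was 30.45 normalized counts, while the other 3 vehicle samples lay between 19.31 and 20.55. Cxcl11 in ENT+CTLA4 replicate 1 was 20.52, while the other 3 lay between 8.54 and 10.42. The same ENT+CTLA4 sample also had the highest Cxcl9, Cxcl10 and Cxcr3 of its arm.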

How the results depend on the processing

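Of 826 values recomputed under alternatives, 763 kept their direction and side of the threshold, 44 reversed, 12 were no longer past the threshold and 7 newly passed it, and the causes were not tested. The background floor, the subtraction, leaving out ENT+PD1 replicates 5 and 6, and 3 of the correlation settings were chosen after seeing the data. The log2 change of Cxcl9 in ENT+CTLA4+HER2 over ENT+CTLA4 newly passed with a pseudocount of 20 (1.75), the cartridge block (3.22) and the floor at the negative controls (2.45). It also passed without ENT+CTLA4 replicate 1 (3.85) and under no other alternative. With single samples left out it ran from 2.49 to 3.85. Where an ENT+CTLA4+HER2 sample is left out, the lone sample is assumed to vary like the other groups. In ENT+PD1 against vehicle, adding the repeat-titled pair gave -0.043 for Cxcl11 and -0.33 for Cxcr3, the floor gave 0.073 for Cxcl9, and Cxcr3 was -0.048 after quantile normalization and -0.11 without replicates 5 and 6. In ENT+PD1 against ENT, Cxcl11 was -0.10 after quantile normalization and -0.049 with the pair. In ENT against vehicle, Cxcl11 was -0.0018 with a pseudocount of 20. In ENT+PD1+CTLA4 against ENT+CTLA4, the floor gave 0.046 for Cxcl11 and -0.062 for Cxcl9. The cartridge block, set only by the pair against the other ENT+PD1 samples, also turned changes against vehicle. ENT+CTLA4 turned to 0.54 for Cxcl11, 0.13 for Cxcl9 and 1.07 for Cxcr3, and ENT+PD1+CTLA4 to 0.38, 0.53 and 1.28. The difference between the anti-PD-1 effects was 0.011 for Cxcl9 and 0.14 for Cxcr3 with the pair, and 0.36 for Cxcl9 without replicates 5 and 6.

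Deviations of like-numbered samples had a median r of -0.033 over 40 pairs, ranging from -0.45 to 0.63, with 14 above 0.1. For unlike numbers the median was -0.017 over 160 pairs, ranging from -0.67 to 0.78, with 59 above 0.1. With ranges this wide, the check cannot decide whether the numbers pair the samples. With the replicate number as a block, Cxcl11 in ENT against vehicle was -0.033, the difference between the anti-PD-1 effects on Cxcl9 was 0.034, and Cxcl9 in ENT+CTLA4+HER2 over ENT+CTLA4 was 3.27 (limma adjusted p = 0.0983).

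The correlation of Cxcl9 with Cxcl11 no longer passed after median rescaling (0.352), quantile normalization (0.0669), without the pair (0.444), on deviations from arm means (0.272), without ENT+CTLA4+HER2 (0.395) and with the negative controls subtracted (0.373). That of Cxcl9 with Cxcr3 did not with a pseudocount of 20 (0.433), median rescaling (0.353), quantile normalization (0.0866), without the pair (0.466), on deviations (0.353) and after subtraction (0.414). Quantile normalization turned Cxcl10 with Cxcl11 to -0.229 and with Cxcr3 to -0.201. Without a pseudocount, the ratio difference of ENT+PD1 against ENT was 0.076.

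With single samples left out, the log2 changes that turned were those of Cxcl9 in ENT+PD1 against vehicle (-0.47 to 0.16), of Cxcl10 (-0.16 to 0.30) and Cxcl11 (-0.27 to 0.21) in ENT against vehicle, and of Cxcl10 (-0.36 to 0.17), Cxcl11 (-0.47 to 0.096) and Cxcl9 (-0.32 to 1.04) in ENT+PD1+CTLA4 against ENT+CTLA4. The Cxcl9 difference between anti-PD-1 effects ran from -1.13 to 0.23, and the ratio differences from -0.41 to 0.28 in ENT+PD1 against ENT and from -0.32 to 0.98 in ENT+PD1+CTLA4 against ENT+CTLA4. The adjusted p of the F test ran from 0.0421 to 0.216 for Cxcl11 and from 0.0159 to 0.321 for Cxcr3. The planned count tests on recovered counts were not run. Low counts near the negative controls limit all 4 genes.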
